A study of Mus musculus with 16 samples.

Results

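T cell receptor beta chains (TRB) whose CDR3, the complementarity-determining region built at the V-D-J joint, carries hydrophobic amino acids at both residue 6 and residue 7 were examined in T cells from mouse liver tumours. Residues were counted from the conserved cysteine, which is residue 1, and alanine, cysteine, phenylalanine, isoleucine, leucine, methionine, valine, tryptophan and tyrosine counted as hydrophobic. A chain was a distinct combination of V name, J name and CDR3 nucleotides within a library, taken from the TRB contig with the most UMIs of each cell, and the CDR3 had to be 13 to 15 residues long. Of 2799 such chains in 8 libraries, 80 had the hydrophobic pair (2.86%), and they were carried by 96 of 3873 cells. Distinct beta chains of any length numbered 3876.

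The tumours arose from the mouse hepatoma line Hepa1-6 after injection into the liver (left lobe) of C57BL/6 mice. Infiltrating cells were taken at day 5 or day 14 from control mice (CON, genotype CD4creMatr3WT/WT) and from knockout mice (KO, genotype CD4creMatr3fl/fl), with 2 receptor libraries in each of the 4 groups. Both genotypes carry Cre recombinase under Cd4 control, which acts in developing T cells, so both CD4 and CD8 lineages can lose a floxed allele. Matr3 encodes the nuclear RNA-binding protein matrin 3, and the receptor tables give no level of it, so the knockout was not checked here. CD4 and CD8 T cells cannot be separated in these tables either, and the age of the animals is not given in the sources used here. Nothing in the labels states that replicate libraries are from different animals, so each p-value covers no more than the spread from library to library, and that spread may be technical.

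A beta CDR3 is built by joining a V, a D and a J segment, with bases trimmed and added at the joints. The ends of the loop are encoded by V and J, while its middle, or apex, comes largely from D and the added bases and is the stretch that reaches over the presented peptide. Hydrophobic amino acids at residues 6 and 7 are known from earlier work on mouse and human repertoires to mark receptors with stronger self-reactivity during thymic development, among them those of regulatory T cells. Cells that join TRAV11 to TRAJ18 in the alpha chain carry the invariant receptor of natural killer T (NKT) cells, which recognise lipids on CD1d and pair mostly with Vβ8, Vβ7 or Vβ2 chains. Their receptors were therefore also counted apart.

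The CDR3 nucleotides of the largest hydrophobic-pair chain in each library show how the pair is encoded in different V and J settings. They are written 5′ to 3′ on the coding strand, with the codons of residues 6 and 7 in capitals. The name gives the V and J segments, and where several chains had 1 cell the chain with the most UMIs is shown.

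Day 5 CON, replicate 1, TRBV12-2 and TRBJ2-5: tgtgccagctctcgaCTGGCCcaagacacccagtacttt
Day 5 CON, replicate 2, TRBV12-2+TRBV13-2 and TRBJ1-4: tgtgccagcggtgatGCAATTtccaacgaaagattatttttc
Day 5 KO, replicate 1, TRBV10 and TRBJ2-5: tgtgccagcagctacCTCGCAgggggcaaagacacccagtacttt
Day 5 KO, replicate 2, TRBV3 and TRBJ2-5: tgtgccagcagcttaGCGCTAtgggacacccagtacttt
Day 14 CON, replicate 1, TRBV20 and TRBJ2-7: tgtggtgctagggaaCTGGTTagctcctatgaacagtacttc
Day 14 CON, replicate 2, TRBV26 and TRBJ2-2: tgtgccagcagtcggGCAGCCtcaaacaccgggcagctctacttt
Day 14 KO, replicate 1, TRBV31 and TRBJ2-2: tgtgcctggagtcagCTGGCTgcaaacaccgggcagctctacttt
Day 14 KO, replicate 2, TRBV3 and TRBJ2-5: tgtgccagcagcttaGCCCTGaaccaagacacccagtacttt

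In these 8 chains the pair was leucine and alanine (3 chains), alanine and leucine (2 chains), alanine and isoleucine, leucine and valine, or alanine and alanine. A further 3 chains show the largest TRAV11-TRAJ18 member and 2 frequent aromatic pairs, tryptophan with alanine and tyrosine with tryptophan.

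TRAV11-TRAJ18 cell, day 5 CON, replicate 2, TRBV12-2+TRBV13-2 and TRBJ2-1: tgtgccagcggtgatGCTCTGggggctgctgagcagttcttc
Tryptophan-alanine, day 5 CON, replicate 2, TRBV17 and TRBJ2-2: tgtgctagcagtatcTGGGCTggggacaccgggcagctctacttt
Tyrosine-tryptophan, day 5 KO, replicate 2, TRBV12-1 and TRBJ2-7: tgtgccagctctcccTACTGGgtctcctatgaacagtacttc

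A library held 462 to 1357 cells with a TRB chain and 5530 to 22948 TRB UMIs in them, with a median of 8.5 to 12 UMIs per cell. Of 5739 barcodes, 21 occurred in more than 1 library, and none of these carried the same beta chain in both. Of the 5760 TRB cells, 9 had a tie for the chain with the most UMIs. Possible doublets, cells with 2 or more TRB or 3 or more TRA chains, numbered 11 to 55 per library and were kept.

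The hydrophobic pair took up a small share of the distinct chains in every group, and the library values overlapped between groups. In day 5 CON the pair was found in 11 of 410 chains of replicate 1 (2.68%, exact 95% binomial interval 1.35 to 4.75) and in 14 of 471 of replicate 2 (2.97%, 1.63 to 4.94). In day 5 KO it was found in 10 of 378 (2.65%, 1.28 to 4.81) and 11 of 324 (3.4%, 1.71 to 5.99). In day 14 CON the counts were 8 of 440 (1.82%, 0.788 to 3.55) and 10 of 264 (3.79%, 1.83 to 6.86), the lowest and the highest of the 8 libraries. In day 14 KO they were 6 of 203 (2.96%, 1.09 to 6.32) and 10 of 309 (3.24%, 1.56 to 5.87). These intervals cover counting error only.

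**Figure D1:**
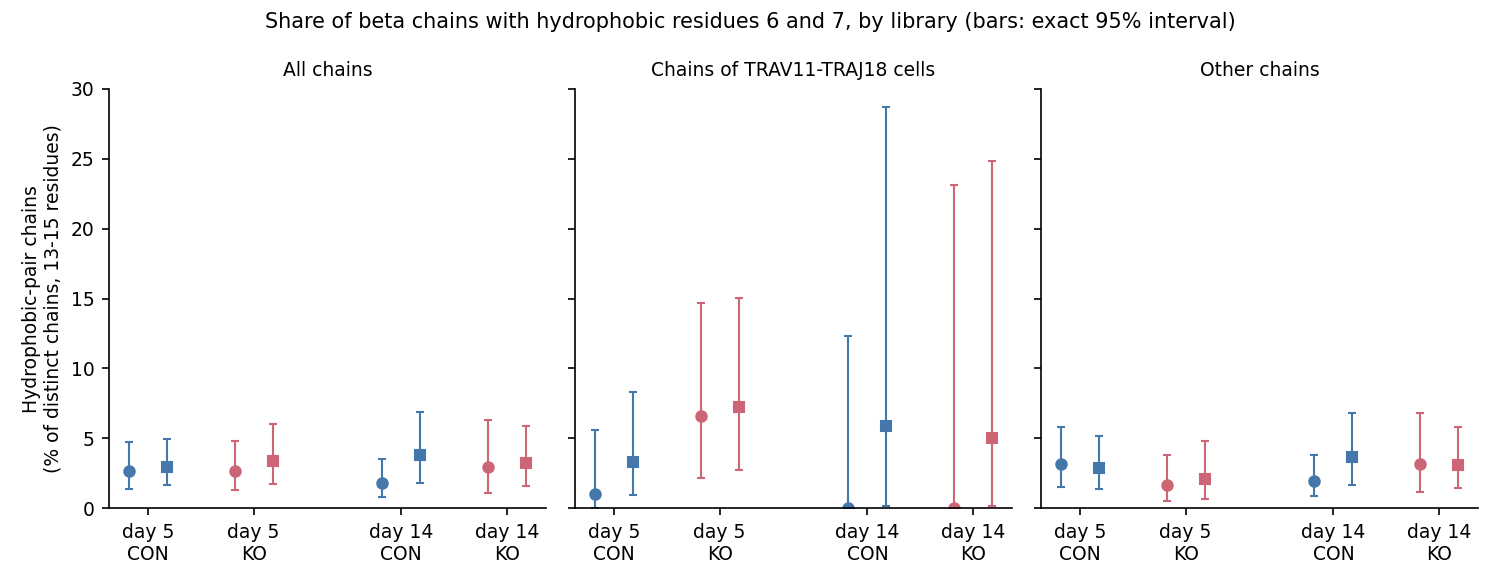
Share of distinct beta chains of 13 to 15 residues with hydrophobic residues 6 and 7 in each library, as percent of all chains (left), of chains from TRAV11-TRAJ18 cells (middle) and of the other chains (right). Circles are replicate 1 and squares replicate 2, blue is CON and red KO, and bars are exact 95% binomial intervals. All chains lie between 1.82% and 3.79%, while the TRAV11-TRAJ18 chains run from 0% to 7.23% with wide intervals.

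No difference between days or genotypes exceeded the spread between libraries. The share averaged 2.92% ± 0.346 over the 4 libraries of day 5 and 2.95% ± 0.830 over the 4 of day 14 (± SD), a difference of 0.0255 percentage points (two-sided exact permutation p = 1). The CON libraries averaged 2.82% ± 0.813 and the KO libraries 3.06% ± 0.330 (SD, n = 4 for either), a difference of 0.243 points within day (exact permutation p = 0.778). The genotype difference was 0.193 points at day 5 and 0.293 points at day 14, and its change between the days was 0.100 points (exact permutation p = 0.944). The 36 relabelings of this design cannot give a p under 0.0556, and the adjusted p was 1 for each of the 5 share comparisons. Counted by cells in place of chains, the day 5 share was 2.84% ± 0.367 and the day 14 share 2.29% ± 1.11 (SD, n = 4).

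Among chains of TRAV11-TRAJ18 cells the pair was found in 18 of 455 (3.96%), against 62 of 2344 other chains (2.65%). At day 5 the TRAV11-TRAJ18 share was 1 of 97 chains (1.03%) and 4 of 120 (3.33%) in CON, and 5 of 76 (6.58%) and 6 of 83 (7.23%) in KO. Both KO libraries lay above both CON libraries. For the other chains of day 5 the order was the opposite, with 10 of 313 (3.19%) and 10 of 351 (2.85%) in CON against 5 of 302 (1.66%) and 5 of 241 (2.07%) in KO. At day 14 these invariant chains were few: 0 of 28 and 1 of 17 in CON, and 0 of 14 and 1 of 20 in KO. A count of 0 allows shares of up to 10.7% and 21.4% in the libraries concerned.

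The KO minus CON difference at day 5 was 4.72 points for TRAV11-TRAJ18 chains and -1.16 points for the others. Each had an exact permutation p of 0.333, the smallest that 2 libraries against 2 can give. With alanine and cysteine taken out of the residue set, the TRAV11-TRAJ18 difference was 0.788 points. The other chains gave a day 14 minus day 5 difference of 0.525 points (2.44% ± 0.704 to 2.97% ± 0.724, SD, n = 4, exact permutation p = 0.333). Their KO minus CON difference over both days was -0.403 points (2.91% ± 0.721 in CON, 2.5% ± 0.759 in KO, exact permutation p = 0.5). Within libraries the TRAV11-TRAJ18 share exceeded the other share by 0.926 points (SD 3.19, n = 8, higher in 5 of 8), with an exact sign-flip permutation p of 0.414. Among chains with the joint TRBV12-2+TRBV13-2 name alone the difference was -1.06 points. At day 5 that name held 3 of the 5 TRAV11-TRAJ18 members in CON and 9 of the 11 in KO. Of the other members of day 5 it held 9 of 20 in CON and 3 of 10 in KO.

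Each residue alone was hydrophobic much more often than both together. Residue 6 was hydrophobic in 20.8% ± 2.26 of chains and residue 7 in 20.2% ± 3.25 (SD, n = 8 libraries). The share with both lay below the product of the single shares in 7 of 8 libraries. The log2 ratio was -0.52 ± 0.37 (SD, n = 8), given as a description because it is built from the residue classes of the rule. With tryptophan and tyrosine left out of the set, as in a set of residues with positive Kyte-Doolittle hydropathy, the ratio was 0.16, so its sign rests on the choice of residues. Tryptophan made up 4.5% of residues 6 and 7.47% of residues 7 over all chains, and glycine 24.2% and 38.0%.

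The loops with the pair were slightly longer than the others, but not beyond the spread between libraries. The pair occurred in 16 of 720 chains of 13 residues (2.22%), 33 of 1231 of 14 residues (2.68%) and 31 of 848 of 15 residues (3.66%). Mean length was 14.2 residues in the hydrophobic-pair chains and 14.04 in the others, longer in 6 of 8 libraries (exact sign-flip permutation p = 0.164, 0.339 adjusted over 10 sequence features).

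Small residues led the pair. Alanine stood at residue 6 in 36 of 80 chains (45%), followed by valine (12), leucine (10), tryptophan (9), tyrosine (7) and isoleucine (6). Over all 2799 chains alanine stood at residue 6 in 7.40%, but any hydrophobic residue stood there in only 20.9%, while the rule requires one. Alanine was also the most frequent hydrophobic residue 6 over all chains (207 chains), before tryptophan (126) and leucine (123). At residue 7 alanine (25 of 80), leucine (21), tryptophan (15) and valine (12) were the most frequent, and phenylalanine, methionine, cysteine and tyrosine were found once each. Over all chains tryptophan was the most frequent hydrophobic residue 7 (209 chains), before leucine (127) and alanine (111). Only 24 of the 81 possible pairs were seen.

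Alanine followed by leucine was the most frequent pair, in 16 chains spread over 8 of 8 libraries, 9 chains of day 5 and 7 of day 14. Every alanine codon begins with G, and in 12 of the 16 that base lies within the V start shared by chains of the same V name. In 10 of the 16 the leucine codon is the first part of the run CTGGGG, which the coding strand of TRBD2-like sequence holds, so glycine follows at residue 8. The TRAV11-TRAJ18 chain printed above has this form, while the TRBV3 chains of day 5 KO and day 14 KO encode the same 2 residues with other bases after them.

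Alanine with alanine, tryptophan with alanine and tyrosine with tryptophan followed, with 7 chains each. Alanine with alanine was mainly a Vβ8 pair (5 of 7 chains), and 4 of the 7 came from TRAV11-TRAJ18 cells. Tyrosine with tryptophan used TRBV12-1 or TRBV12-2, the Vβ5 segments, in 6 of 7 chains and a Jβ2 segment in 7 of 7, with no Vβ8 chain and no TRAV11-TRAJ18 cell. It came from 6 libraries, and 4 of the 7 carried proline at residue 5, as in the chain printed above. Alanine with valine was found in 5 chains. Alanine with tryptophan, isoleucine with alanine and leucine with alanine were found in 4 chains each. Some chains of a pair share V or D bases, so these counts are given as a description.

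**Figure D2:**
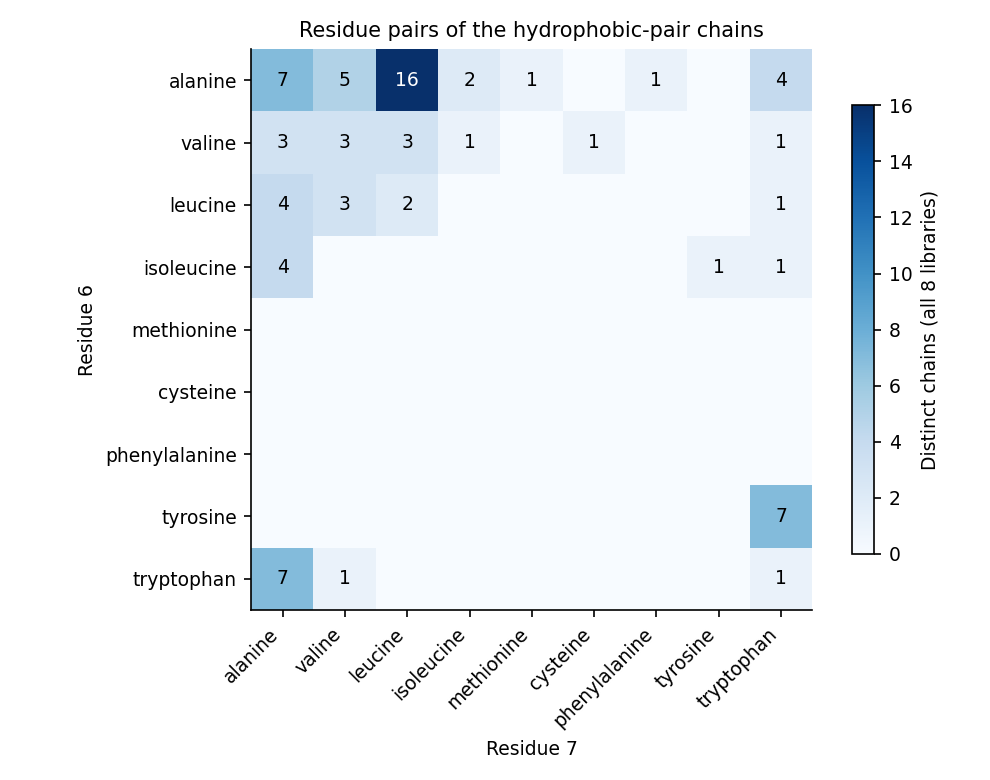
Number of distinct hydrophobic-pair chains over all 8 libraries for each residue 6 (rows) and residue 7 (columns), with darker cells for more chains. Alanine-leucine holds 16 of the 80 chains, and tyrosine at residue 6 occurs only before tryptophan (7 chains).

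Among V segments, the joint name TRBV12-2+TRBV13-2 had the most members. The deposited name joins TRBV12-2 (chromosome 6, 41118864 to 41119364, GRCm38.p6) and TRBV13-2 (chromosome 6, 41121396 to 41121832), and what the joining stands for was not examined. Its chains share the CDR3 start of those named TRBV13-2 alone, a Vβ8 segment, and not that of TRBV12-2. The hydrophobic pair was found in 6 of 85 joint-name chains (7.06%), 6 of 96 (6.25%), 6 of 77 (7.79%) and 6 of 72 (8.33%) in the libraries of day 5, CON before KO. At day 14 it was found in 1 of 53 (1.89%), 0 of 25, 1 of 23 (4.35%) and 2 of 39 (5.13%). The 4 day 5 libraries thus gave 24 of the 28 chains, and each lay above each day 14 library. With TRAV11-TRAJ18 chains apart, the days overlapped. The other joint-name chains had the pair in 12.8%, 10%, 5.56% and 3.85% at day 5 and 2.63%, 0%, 5.56% and 3.57% at day 14. Those of TRAV11-TRAJ18 cells had it in 2.17%, 3.57%, 9.76% and 10.9%, then in 0%, 0%, 0% and 9.09% of only 5 to 15 chains. The contrast between days within this name was seen in the values and was not tested.

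Over all libraries the pair was present in 28 of 470 joint-name chains (5.96%, exact interval 3.99 to 8.50), and the name took up 35.0% of hydrophobic-pair chains against 16.3% of the others. edgeR, with the library as a block, gave a log2 difference of 1.10 ± 0.30 (SE, adjusted p = 0.00729 over 34 V, D and J segments). Of the 34 segments tested 5.88% were called, 1 higher (2.94%) and 1 lower (2.94%, the D segment TRBD1, whose bases fall in the codons of the rule), and the median log2 difference was -0.35. TMM factors shifted that median by -0.94 and gave 0 higher and 11 lower calls, with the joint name at 0.14. The joint name kept its direction in each of 23 alternatives, with adjusted p from 0.00120 to 0.945. The call was lost when day 5 CON replicate 1 was left out (adjusted p = 0.0621), when day 5 KO replicate 1 (0.0806) or replicate 2 (0.0652) was left out, without TRAV11-TRAJ18 chains (log2 1.28, adjusted p = 0.0687), with DESeq2 (0.0532), with alpha-paired chains only (log2 1.00, adjusted p = 0.0829), without alanine and cysteine in the residue set (log2 0.58, adjusted p = 0.574), with TMM factors (adjusted p = 0.628), or in the day 14 libraries alone (log2 0.06, adjusted p = 0.945).

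The bases of the joint-name chains sit close to the pair. Their shared start runs through the 15 bases of residues 1 to 5 and adds the G that opens codon 6, a codon the rule reads, so use of this name is not wholly independent of the rule. The base was G in 23 of their 28 hydrophobic-pair chains, and 19 had alanine at residue 6. TRBV13-1 (chromosome 6, 41116036 to 41116468), another Vβ8 segment whose shared start also ends in that G, had the pair in 1 of 204 chains (0.490%, exact interval 0.0124 to 2.70). Its log2 difference was -2.51 ± 1.04 (SE, edgeR adjusted p = 0.133), and 0.14 with lengths of 12 to 16 residues. TRBV13-2 named alone, whose shared start equals that of the joint name, had the pair in 2 of 57 chains (3.51%). The log2 difference of TRBV13-2 was 0.32 ± 0.79 (SE, edgeR adjusted p = 0.844). TRBV13-3, also Vβ8, had the pair in 6 of 142 chains (4.23%), 1 of 87 at day 5 and 5 of 55 at day 14. Where the whole start was kept, C followed the G, giving alanine at residue 6, in 60.7% of 140 joint-name chains and 34.9% of 63 TRBV13-1 chains. Within libraries the joint-name share exceeded the TRBV13-1 share by 4.81 points (SD 2.91, n = 8, higher in 7 of 8 and 0 in both in the other), a contrast chosen after its values were seen and so not tested. Joint-name chains of TRAV11-TRAJ18 cells supplied 13 of the 28, and 13 of the 18 TRAV11-TRAJ18 members had the joint name.

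By family, Vβ8 held 37 of the 80 chains (4.24% of 873), Vβ5 13 (5.73% of 227), Vβ2 3 (1.39% of 216) and Vβ7 1 (0.758% of 132). The Vβ5 chains were 8 of 117 for TRBV12-1 (6.84%, exact interval 3.0 to 13.03) and 5 of 110 for TRBV12-2 (4.55%, 1.49 to 10.3), whose log2 differences were 1.27 ± 0.60 and 0.66 ± 0.70 (SE, edgeR adjusted p = 0.172 and 0.745). TRBV5 (chromosome 6, 41062359 to 41062803) had none in 145 chains, which allows up to 2.07%. Its share among hydrophobic-pair chains was at least 1.42-fold lower, taking 3 chains over all libraries as the floor (edgeR adjusted p = 0.0780). The shared starts of TRBV5 and of TRBV1, the Vβ2 segment, run into codon 6 with the bases GA, which open no hydrophobic codon. Their low counts are therefore not independent of the rule. In all, 19 of 22 V names and 10 of 12 J names carried at least 1 member.

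**Figure D3:**
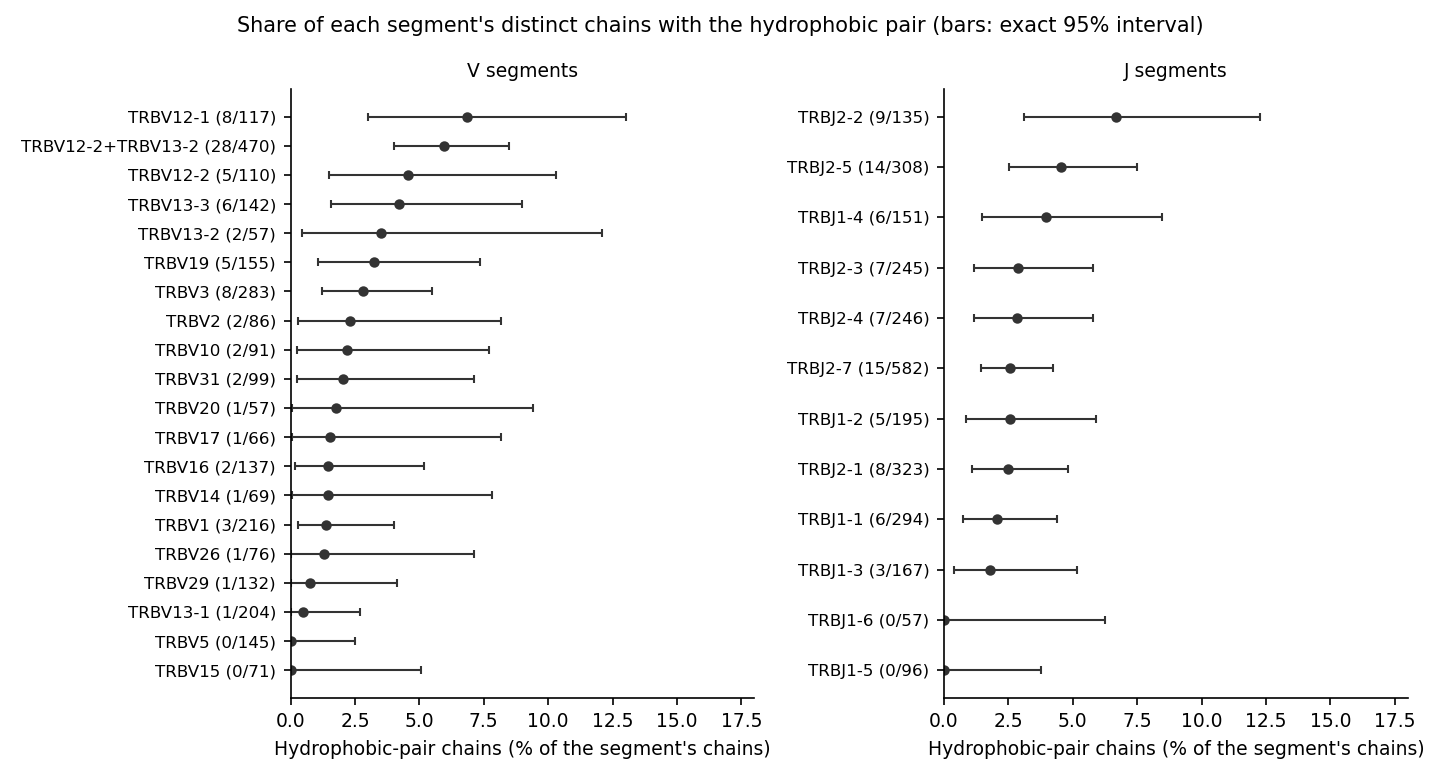
Share of each V segment's (left) and J segment's (right) distinct chains with the hydrophobic pair, in percent, over all 8 libraries, for segments with 20 or more chains. Points are shares, bars exact 95% binomial intervals, and the members and chains of each segment stand in parentheses. TRBV12-1, the joint TRBV12-2+TRBV13-2 name and TRBJ2-2 have the highest shares.

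Jβ2 segments carried 60 of the 80 chains (3.26% of 1839) and Jβ1 segments 20 (2.08% of 960). TRBJ2-2 (chromosome 6, 41542957 to 41543007) had the highest J share, 9 of 135 (6.67%, exact interval 3.09 to 12.3), with members in 6 libraries. Its log2 difference of 1.30 ± 0.58 did not pass (SE, edgeR adjusted p = 0.152). TRBJ2-5 followed with 14 of 308 (4.55%), and TRBJ2-7 had 15 of 582 (2.58%). TRBJ1-5 (chromosome 6, 41535084 to 41535133) had none in 96 chains, which allows up to 3.13% (edgeR adjusted p = 0.133). In 17 of the 80 chains the shared J end reached codon 7, so J use is not wholly independent of the rule.

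D segments overlap the codons of the rule, so their values only describe it. A D segment was named in 6 of the 80 hydrophobic-pair chains (7.50%) and in 673 of 2719 others (24.8%). TRBD1 (chromosome 6, 41533201 to 41533212) was named in 464 chains, of which 1 had the pair, with a fitted log2 difference of -3.72 ± 0.79 (SE). Without the day 14 CON library of replicate 2, which holds that chain, 0 members were left and the fitted value depends on the prior count. TRBD2 was named in 215 chains, of which 5 had the pair. The run CTGGGG, found in TRBD2-like sequence, was present on the coding strand of 29 of 80 hydrophobic-pair chains (36.3%), 21.7% of the others and 22.1% of all chains. Each of the 29 used a Jβ2 segment, as did 584 of the 590 other chains with the run. The run CAGGGG, found in TRBD1-like sequence, was present in 5 of 80 (6.25%), 17.5% of the others and 17.2% of all chains. Only the coding strand was searched, and the runs do not overlap each other.

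The residues beside the pair were compared over libraries, and none of the 10 sequence features passed after adjustment. Residue 5 was charged in 44.5% ± 20.6 of hydrophobic-pair chains and 28.4% ± 4.2 of the others (SD, n = 8, higher in 6 of 8, exact sign-flip permutation p = 0.0391, adjusted 0.130). That residue was aspartate in 32 of the 80, and these 32 were all Vβ8 chains, whose shared start encodes it. Within Vβ8, residue 5 was charged in 33 of 37 hydrophobic-pair chains and in 540 of 836 others, and outside Vβ8 in 4 of 43 and 246 of 1883. Residue 8 was charged in 3.64% ± 5.03 and 10.4% ± 1.96 (SD, n = 8, lower in 7 of 8, exact sign-flip permutation p = 0.0156, adjusted 0.0781). Glycine was the most frequent residue 8, in 39 of 80 hydrophobic-pair chains (48.8%) and 38.1% of the others.

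Hydrophobic residues at the neighbouring positions were not more frequent. At residue 5 they made up 27.6% ± 18.4 in hydrophobic-pair chains and 37.6% ± 5.03 in the others, and at residue 8 14.0% ± 16.8 and 20.2% ± 2.30 (SD, n = 8, exact sign-flip permutation p = 0.195 and 0.313). The number of bases outside the shared V start and J end was 9.84 ± 1.24 and 9.95 ± 0.195 (SD, n = 8, exact permutation p = 0.828). Both codons of the pair lay wholly outside those ends in 36 of 80 chains, and in 63.4% of the others (n = 8 libraries, lower in 8 of 8, exact sign-flip permutation p = 0.0078, adjusted 0.0781). The residue rule itself bears on this measure, and with alanine and cysteine taken out of the set its difference was 7.87 points higher in place of 17.7 points lower. UMIs per cell were 12.1 ± 3.44 and 12.6 ± 1.63 (SD, n = 8, exact permutation p = 0.570).

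Most hydrophobic-pair chains were seen in a single cell. At day 5, 45 of 46 had 1 cell, and at day 14, 28 of 34 did, against 1493 of 1537 and 960 of 1182 other chains. Chains with 2 or more cells, called expanded, made up 7 of 80 hydrophobic-pair chains (8.75%) and 266 of 2719 others (9.78%). Within libraries the expanded share was 2.39 points lower (SD 11, n = 8, lower in 5 and higher in 3, exact sign-flip permutation p = 0.523).

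The 7 expanded chains came from 3 libraries. In day 14 CON replicate 2 the TRBV26 chain printed above, with alanine at both residues, had 6 cells, the largest of all hydrophobic-pair chains, and 3 others with TRBV1, TRBV13-3 and TRBV3 had 2 cells each. In day 14 KO replicate 2 the TRBV3 chain printed above had 5 cells and another TRBV3 chain, with leucine at both residues, had 4. At day 5 the joint-name chain with TRBJ1-4 had 2 cells. No chain of a TRAV11-TRAJ18 cell was expanded among the 18, of which 16 came from day 5. Other TRAV11-TRAJ18 chains were seldom expanded too, 2.32% ± 2.45 at day 5 and 7.79% ± 7.91 at day 14 (SD, n = 4). The count of 0 therefore does not set these members apart.

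No hydrophobic-pair chain reached 10 cells, while 21 other chains did and the largest of them had 150. At day 14 these made up 1.69% of other chains, and 0 of 34 allows a share of up to 8.82%. Mean cells per chain were lower in hydrophobic-pair chains in 8 of 8 libraries (log2 ratio -0.26 ± 0.36, SD, exact sign-flip permutation p = 0.0078, adjusted 0.0313 over 4 comparisons). That ratio turned on the few large chains: with chains of 10 or more cells left out it was -0.03 (exact permutation p = 0.633), and a mean over 6 to 14 chains seldom takes in a rare large chain. In libraries without an expanded member the mean was 1 cell, the lowest possible, so the ratio could not be positive there. The sign-flip test does not allow for that floor.

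**Figure D4:**
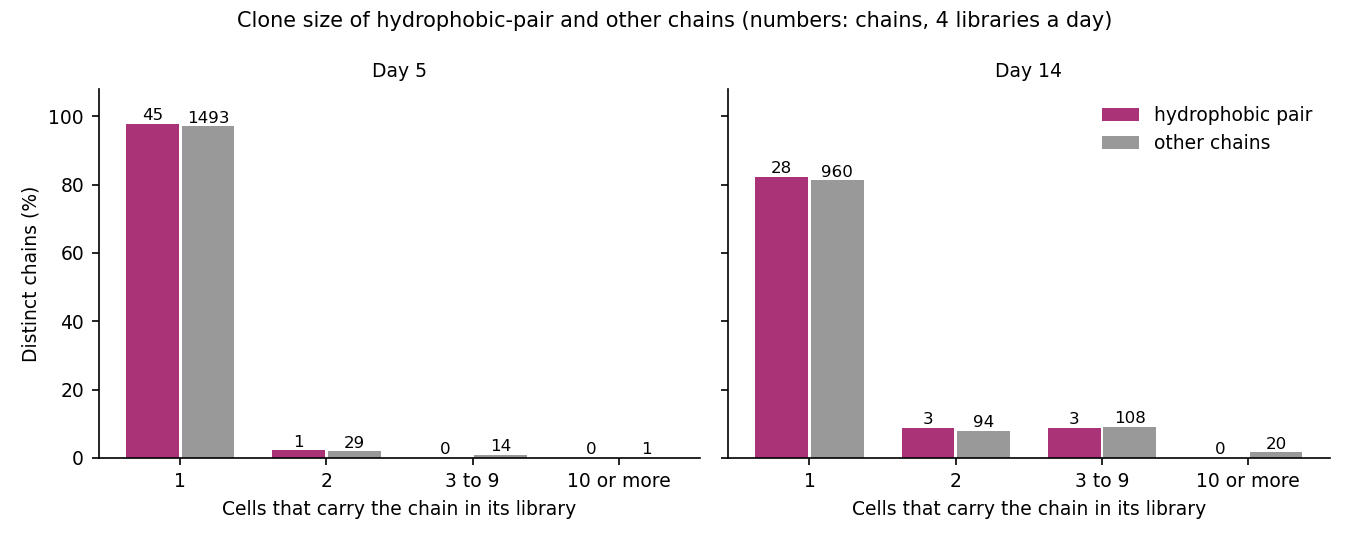
Percent of distinct hydrophobic-pair chains (purple) and of other chains (grey) carried by 1, 2, 3 to 9 or 10 or more cells of their library, at day 5 and at day 14 (4 libraries each). Numbers over the bars count chains. The bars of both classes are close in each size class, and the chains with 10 or more cells are all other chains.

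An alpha chain was read for 73 of the 80 chains, with 56 different pairs of TRAV and TRAJ names. TRAV11-TRAJ18 was found for 18, TRAV6-6 with TRAJ18 for 2 and each remaining pair for 1. No chain had the TRAV1-TRAJ33 alpha chain of mucosal-associated invariant T cells. A library held only 0 or 1 TRB cell with it, so this does not set the members apart. A single nucleotide sequence occurred in 2 libraries, the joint-name chain with TRBJ1-4 printed above. In day 5 CON replicate 2 its 2 cells carried different alpha chains, TRAV5-4 with TRAJ50 or TRAJ52, and in day 14 KO replicate 2 its 1 cell carried TRAV11-TRAJ18. The share of chains found with the same V, J and amino acids in another library was 2.14% ± 4.04 for hydrophobic-pair chains and 3.17% ± 2.53 for the others (SD, n = 8, exact sign-flip permutation p = 0.5).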

How the data were processed

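Receptor contigs of 8 libraries were analysed, and the 8 RNA libraries of the same groups were not used here. The submitters' processing notes list Cell Ranger 3.1.0, Seurat 4.0.0, CASAVA 1.8, R 4.1.2 and build GRCm38 (mm10), without their roles. The deposited values are whole-number counts of UMIs and reads per contig, not normalized, per the file headers, and other deposited values such as contig length were not compared. Contigs called cells, high confidence and productive were kept, and each cell was represented by its TRB contig of highest UMI count. Segment positions came from RefSeq genes of GRCm38.p6. The shared V start or J end of a name is the consensus at which 50% of sequences that match so far, and 20% of all, agree.

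Shares were compared with exact permutation tests over libraries. Day labels were permuted within genotype, or genotype labels within day (36 relabelings), and within-library differences had their signs flipped (smallest p 0.0078). Distinct chains per segment (34 with 20 or more chains) were tested with edgeR 4.0.16 in R 4.3.3, with the library as a block, the class total as offset, Benjamini-Hochberg adjustment and a threshold of 0.05. The segment test was also run on simulated V counts with larger planted rises and no added spread between libraries. That run does not bear on a difference as small as that of the joint name. Python 3.11.15, scipy 1.17.1, pandas 2.3.3 and DESeq2 1.42.0 were used besides.

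The residue rule, lists and tests were chosen with earlier results of these data known. Named segments are those past the threshold, or the 6 with the smallest p, and those of the Vβ families. TRBJ2-5, TRBJ2-7 and TRBD2 were named after their values were seen. Named pairs are the 8 most frequent, and printed chains are the largest of each library, of TRAV11-TRAJ18 cells and of the frequent pairs. Replicate numbers give 2 pairs per day and nothing states what they share.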

Additional observations from a re-analysis of the deposited data

Results flagged for a closer look

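The KO minus CON difference in the share of hydrophobic-pair chains at day 5 had opposite signs in TRAV11-TRAJ18 chains and in the other chains. Both KO libraries lay above both CON libraries in the former and below both in the latter. It was 4.72 percentage points for TRAV11-TRAJ18 chains (5 and 6 members in KO, 1 and 4 in CON) and -1.16 points for the others (5 and 5 in KO, 10 and 10 in CON). The gap between them was 5.88 points, with an exact permutation p of 0.333, the smallest that 2 libraries against 2 can give, so the difference is not shown beyond the spread between libraries. It was singled out after the values were seen. Without 1 library it ran from 4.55 to 7.20 points, and with alanine and cysteine taken out of the residue set it was 1.14 points. At day 14 the TRAV11-TRAJ18 chains were too few, 14 to 28 per library, for a like comparison. Many of the day 5 members had the joint TRBV12-2+TRBV13-2 name. Among TRAV11-TRAJ18 chains of that name the pair was found in 3 of 102 in CON and 9 of 87 in KO. Among its other chains it was found in 9 of 79 and 3 of 62. All joint-name chains together gave 12 of 181 in CON and 12 of 149 in KO. Whether the opposite signs rest on this name was not tested.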

How the results depend on the processing

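Of 545 recomputed values, 460 kept their direction and their side of the threshold. The sign of the day difference over all chains turned in 11 of 22 alternatives and that of the change between days in 8 of 22. KO minus CON turned in 3, and both comparisons without TRAV11-TRAJ18 chains in 2 each. The cause was not tested.

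The day 14 minus day 5 difference over all chains (0.0255 points) turned to -0.0425 without possible doublets, -0.0297 with lengths 12 to 16, -0.251 with alpha-paired chains only, -0.551 by cells, -0.869 and -0.288 at length 14 or 15 alone and -0.000356 against the share given by J and length. Leaving out each library in turn it ran from -0.467 to 0.518. Without TRAV11-TRAJ18 chains it was -0.0919 by cells and -0.449 at length 14, and 0.0995 to 0.951 with 1 library left out. KO minus CON was -0.00727 without alanine and cysteine in the set, -0.188 at length 14, and -0.250 (without day 14 CON replicate 1) to 0.735 with 1 library left out. Without TRAV11-TRAJ18 chains it was 0.711 at length 13 and -0.828 to 0.0229 with 1 library left out. The change of that difference between days was -0.307 without possible doublets, -0.760 with alpha-paired chains, -4.84 at length 15, -0.0698 against the share given by V, and -0.885 to 1.09 with 1 library left out. The TRAV11-TRAJ18 minus other difference was -1.06 within the joint V name (0.322 to 1.51 with 1 library left out). At day 5 the KO minus CON difference of other chains was 0.154 at length 15 (-1.37 to -0.947 with 1 library left out), and that of TRAV11-TRAJ18 chains ran from 3.57 to 5.87.

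With the residues of positive Kyte-Doolittle hydropathy, the pair over the product was 0.16 and cells per chain -0.21 (p = 0.203, exact permutation), and without chains of 10 or more cells the latter was -0.0308. With 1 library left out these ran from -0.61 to -0.44 and from -0.29 to -0.17, and the expanded share from -4.96 to -0.121. Bases outside the shared ends turned to 0.488 without alanine and cysteine, 0.0177 without doublets, 0.0672 with lengths 12 to 16, and ran from -0.426 to 0.0945 with 1 library left out, with 0.0408 without day 14 KO replicate 2. The codon measure was 7.87 without alanine and cysteine. UMIs per cell were 0.217 with the Kyte-Doolittle set and 0.00938 without TRAV11-TRAJ18 chains. Sharing turned to 0.202 with the Kyte-Doolittle set and 2.13 with lengths 12 to 16, and ran from -3.24 to 0.0325. TRBV13-1 was 0.14 with lengths 12 to 16.

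Of the segments, 2 were called. TMM called 11, DESeq2 1, the set without alanine and cysteine 1, alpha-paired chains 1, chains without TRAV11-TRAJ18 1, D segments left out 1 and day 14 alone 0 (1 at an unadjusted p under 0.05). With 1 library left out 1 to 2 were called. At an unadjusted p under 0.05 the main test had 8.

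Same-numbered CON and KO libraries deviated together with a correlation of -0.145 at day 5 and 0.0239 at day 14 over 32 segments, which gives no sign of pairing, and what the numbers share is not stated. With the replicate number as a block the KO minus CON difference was 0.243 (exact permutation p = 0.75) and the day difference 0.0255 (p = 1), and no call changed.

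With 6 to 14 members per library, a share of about 3% has an interval from under 2% to over 4%, so differences of a point between libraries are not detectable at this depth.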

Other observations

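Pairs of hydrophobic residues were also counted at the other places of the loop. At residues 5 and 6 they were found in 182 chains, with a median share of 6.37% over the 8 libraries (5.42% to 7.58%), at residues 7 and 8 in 67 (median 2.30%) and at residues 8 and 9 in 102 (median 3.79%). At residues 4 and 5 none was found, and residue 4 was hydrophobic in 1.14% of chains. The shares at residues 5 and 6 averaged 6.35% ± 0.821 in the 4 day 5 libraries and 6.6% ± 0.892 in the 4 day 14 libraries (SD).

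Outside the length rule, hydrophobic residues 6 and 7 were found in 12 of 148 chains of 11 residues (8.11%), 8 of 435 of 12 residues (1.84%), 15 of 344 of 16 residues (4.36%) and 5 of 95 of 17 residues (5.26%). In the shortest of these loops residue 7 lies nearer the J end. These values are descriptions and were not tested.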
